A study of Mus musculus with 6 samples.

Results

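The genes described here are 38 genes of the germline: germ cell regulators, proteins of meiotic chromosomes, and the piRNA pathway, together with a few germ cell versions of proteins that all cells need. They were taken from a list of symbols, and their probes were found by the accession that the array design gives for each probe. Of the 38 genes, 33 had at least 1 probe (47 probes in all), out of 18217 genes with a symbol and a probe. Sycp3, Tdrkh, Tuba3b, Piwil4 and Rpl10l had no probe matched by accession and were not analysed here.

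RNA came from whole lungs of single mouse embryos at E18.5, just before birth, with 3 wild type embryos and 3 embryos that lack Dppa2, called ECAT15-2 in the labels. Wild type means 15-1+/+ with 15-2+/+. Knockout means 15-2-/- on a 15-1Flox/Flox genotype. Each knockout thus also carried 2 floxed alleles of ECAT15-1, the gene Dppa4, and an effect of that allele cannot be told apart from the loss of Dppa2. All 6 embryos came from parents with 1 floxed ECAT15-1 allele and 1 null ECAT15-2 allele, on a background that the labels call a mixture of 129Sv, C57/BL6 and a Cre or FLPe line of unknown strain. Wild types 1 and 2 and knockout 3 were hybridised on slide 1, wild type 3 on slide 2, and knockouts 1 and 2 on slide 3. The null allele was present in all cells of the embryo, and the lung was measured as 1 bulk sample, in which fewer cells of a type and less RNA per cell cannot be told apart.

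Germ cells set themselves apart from the soma by a program that prepares for meiosis and guards the genome against transposons. In meiosis, the synaptonemal complex (Sycp1 to Sycp3, Syce1, Syce2) joins homologous chromosomes along their length, Spo11 cuts DNA to start recombination, and Dmc1 repairs the cut on the homolog. In the piRNA pathway, small RNAs bound to Piwi proteins direct the silencing of transposons, and Tudor proteins (Tdrd1, Tdrd5, Tdrd6, Tdrd7, Tdrd9, Tdrkh) organise the granules and mitochondrial contacts where these RNAs are made. In somatic cells many of these genes are held silent by DNA methylation at CpG-rich promoters, and by a Polycomb complex that reaches E-box and E2F sites through Mga, Max and E2f6. Dppa2 and Dppa4 are nuclear proteins of pluripotent cells and early embryos, known for protecting promoters of developmental genes from DNA methylation.

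The 3 genes with a probe that was lower in the knockout lungs are shown first by the DNA before their start sites, since CpG methylation is 1 of the known ways of silencing such promoters. Each run is the 250 bases upstream of the first RefSeq start, 5′ to 3′ on the gene's strand, on GRCm38.p6, with every CpG in capitals.
Tdrd1, chr19:56825959-56826208, plus strand: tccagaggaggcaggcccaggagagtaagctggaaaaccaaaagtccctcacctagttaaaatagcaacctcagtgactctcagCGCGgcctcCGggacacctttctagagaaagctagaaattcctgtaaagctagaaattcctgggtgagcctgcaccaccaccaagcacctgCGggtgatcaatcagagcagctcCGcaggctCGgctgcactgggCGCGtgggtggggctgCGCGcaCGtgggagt
Syce1, chr7:140787855-140788104, minus strand: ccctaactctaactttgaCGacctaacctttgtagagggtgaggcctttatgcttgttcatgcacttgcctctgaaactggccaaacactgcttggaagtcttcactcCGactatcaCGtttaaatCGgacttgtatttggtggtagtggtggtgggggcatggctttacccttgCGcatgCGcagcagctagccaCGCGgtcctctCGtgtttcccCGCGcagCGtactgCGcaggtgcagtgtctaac
Rpl39l, chr16:10169978-10170227, plus strand: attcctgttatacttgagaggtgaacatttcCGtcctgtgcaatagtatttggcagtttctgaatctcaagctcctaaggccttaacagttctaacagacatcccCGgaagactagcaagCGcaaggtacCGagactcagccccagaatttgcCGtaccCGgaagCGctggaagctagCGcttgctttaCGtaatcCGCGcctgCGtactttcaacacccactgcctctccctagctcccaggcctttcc
These windows held 11, 13 and 12 CpG, against a median of 6 over the first windows of all 27025 genes in the RefSeq table. The median was 14 over the 33 listed genes with a window and 12 over those among them that passed the background filter. The 3 windows were thus not rich in CpG for this set. Of all first windows, 64% had fewer CpG than that of Tdrd1, 68.15% fewer than that of Syce1 and 66.17% fewer than that of Rpl39l. Tdrd1 has further RefSeq starts, with 22 and 3 CpG in their windows. DNA methylation was not measured in this series.

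Which germline genes are detected in the lung was read from the scanner software's flag for a signal well above background. Of the 33 genes with a probe, 15 had a probe above background on each array of 1 group or both (45.5%, against 76.5% of all genes with a symbol), 10 on all 6 arrays (30.3%, against 73.7%) and 20 on 1 array or more (60.6%, against 81.7%). The remaining 5 of these 20 genes were above background on some arrays only, and 13 genes on none. The 13 were Dazl, Dmrtb1, Taf7l, Tex101 and Stk31 among the regulators, Sycp1 and Tex11 among the meiosis genes, Piwil1, Piwil2, Mael, Mov10l1 and Tdrd9 in the piRNA pathway, and Slc25a31, the ATP carrier of the sperm tail. For these 13 only a bound exists in either group, so a gain or a loss in the knockout below that bound was not detectable. Taf7l and Tex11 lie on the X chromosome.

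The number of these genes above background was 17, 16 and 16 on wild types 1, 2 and 3, and 12, 16 and 14 on knockouts 1, 2 and 3. Knockout 1 had the highest threshold of the 6 arrays. Its dimmest spot called well above background had an intensity of 29.3 before scaling, against 14.0 to 20.6 on the others, and it had 63.3% of all probes above background, against 66.1% to 68.8%.

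**Figure D1:**
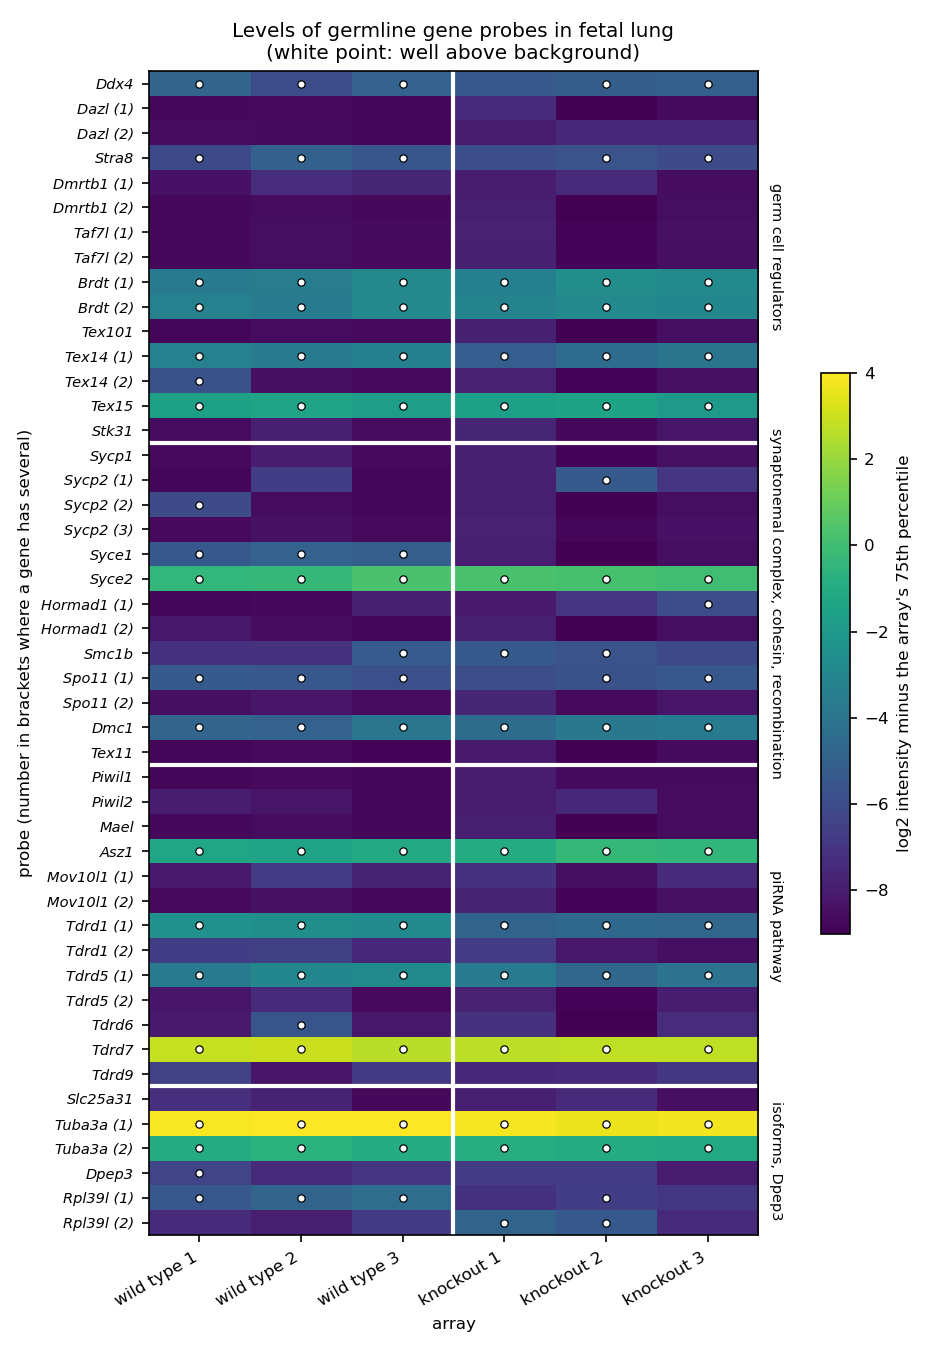
Levels of all 47 probes (rows, grouped by role) on the 6 arrays (columns), as log2 intensity minus the array's 75th percentile, with a white point where the probe lay well above background. Dark rows without points are probes above background on no array, such as those of Dazl, Mael and Sycp1, and the Syce1 row has points on the 3 wild type arrays and on no knockout array.

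The promoters were also searched for short sequences that the choice of members did not use. Genes above background on no array are called undetected here. The E-box CACGTG reads the same on both strands. All motif counts here are for the first window of each gene, the 250 bases upstream of its first RefSeq start. There the E-box occurred in 8 of the 11 undetected genes with a RefSeq window, and in 3 of the 13 tested genes with one. It was found in 6.05% of the first windows of all genes. In the 7791 first windows within the CpG range of the undetected genes (8 to 21) it was found in 8.91%. That set was matched on the range alone, while the undetected genes had a median of 18 CpG. Over all 33 members with a window the E-box was in 13 (39.4%). The E2F core GCGGGA, searched on both strands, was in 6 of the 13 tested and 1 of the 11 undetected genes, against 16.9% of all genes. The NRF1 core TGCGCA was in 3 of 13 and 2 of 11, against 6.66%. Windows of further starts were not counted. Among them, windows of Tdrd1, Syce2, Tdrd7 and Stk31 held the NRF1 core, and that of Syce2 an E-box, though their first windows did not. These motifs were chosen with the sequences in view, the groups are small, and a match is a string of letters and no evidence of binding. Stretches around the E-box (in capitals) are printed for 4 undetected genes and for Tdrd1, the gene of this set that fell with the smallest p.
Mael, chr1:166238942-166238987, minus strand: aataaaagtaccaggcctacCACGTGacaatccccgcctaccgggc
Sycp1, chr3:102936169-102936214, minus strand: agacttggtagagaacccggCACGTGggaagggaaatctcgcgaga
Taf7l, chrX:134476514-134476559, minus strand: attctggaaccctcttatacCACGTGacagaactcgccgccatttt
Stk31, chr6:49395464-49395509, plus strand: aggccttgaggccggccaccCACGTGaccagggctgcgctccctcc
Tdrd1, chr19:56826178-56826208, plus strand: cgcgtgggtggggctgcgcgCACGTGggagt
The hexamer ended 217, 88, 43, 49 and 5 bases before the start in these 5 genes.

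Whether the lung without Dppa2 loses or gains germline transcripts was then asked for the 15 genes that passed the background filter. A level is the log2 intensity minus that of the array's 75th percentile, and a difference is the knockout mean minus the wild type mean of these levels (limma, Benjamini-Hochberg over 19867 features, called at an adjusted p under 0.05). Tdrd1, Syce1 and 1 of 2 Rpl39l probes fell, 0 genes rose by limma, and 12 did not pass. Over all features tested, 0.619% were called lower and 0.725% higher (1.34% in all). Among features with a gene symbol these shares were 0.746% and 0.287%. With every probe as a feature of its own the same 3 probes passed, against 1.37% of all probes. At an unadjusted p under 0.05 there were 5 lower and 1 higher, against 25.7% of all features in either direction. The differences were negative for 10 of the 15 genes and positive for 5, with a median of -0.19, against 0.01 over all features. Syce1, Rpl39l, Ddx4, Stra8 and Spo11 passed the filter through the wild type group alone, which favours members that are high there, so these counts and the median describe the tested genes and support no direction for the set. The groups did not overlap in 5 genes that were lower and 1 that was higher, against 14.3% and 17% of all features (31.3% in all).

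Tdrd1 encodes a Tudor protein that binds Piwi proteins in germ cell granules. Its level was -2.45, -2.51 and -2.83 on wild types 1, 2 and 3, and -4.79, -4.68 and -4.71 on knockouts 1, 2 and 3. All 6 values lay well above background, the 3 knockout values were within a narrow band, and the groups were far apart. The wild type mean was -2.59 ± 0.20 and the knockout mean -4.73 ± 0.06 (SD, n = 3). They differed by -2.13 (SE, the standard error, 0.13; 95% confidence interval -2.44 to -1.83; 4.39-fold; limma adjusted p = 0.00223). Of all 19867 features only 5 had a smaller p. Within slide 1 the difference was -2.23, and between knockout 3 and wild type 3, whose files share a number in the labels, it was -1.88. The call was lost with that number as a block (adjusted p = 0.0888) and without wild types 1 and 2 (0.134), in a range of 0.00108 to 0.134 over all alternatives, and with normexp background correction the difference was -1.19. The other Tdrd1 probe, designed on the transcript NM_031387 where the first was designed on NM_001002241, lay below background on all 6 arrays.

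Syce1 encodes a central element protein of the synaptonemal complex. Its level was -5.41, -4.92 and -5.05 in the wild type lungs, well above background on each array. In the knockout lungs the spots were not well above background on any array, at measured levels of -7.92, -8.96 and -8.51. The groups did not overlap. Set against the lowest signal called above background on each knockout array, Syce1 was 2.31-fold lower, an approximate bound. That lowest signal is not a strict threshold. On knockout 1 it was 29.3 before scaling, yet the Ddx4 probe was not called there at 38.8. The limma adjusted p of 0.00549 belongs to the measured values, not to that bound. A pattern of all 3 wild type and no knockout arrays above background was found in 0.237% of the features tested, and the reverse in 0.116%. The call was lost in fits with a slide block (adjusted p = 0.0698), with a file number block (0.216) and without wild types 1 and 2 (0.163), in a range of 0.000425 to 0.216 over all alternatives. With normexp the measured difference was -0.67, against -3.33 in the reported fit. In intensity before scaling the wild type spots read 39.3, 50.1 and 48.8, so Syce1 was dim in the wild type lung as well. Bounds are approximate for such spots, since the threshold differs between arrays and between spots of an array.

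Rpl39l is a testis version of the ribosomal protein Rpl39. At the probe with the higher mean its level was -5.48, -4.84 and -4.38 in the wild type lungs and -7.12, -6.66 and -6.90 in the knockout lungs. The groups did not overlap, but of the knockout arrays only knockout 2 lay above background. The measured difference was -1.99 (SE 0.28; limma adjusted p = 0.0290). Since 2 of the 3 knockout values lay below background, its size is not settled. Another Rpl39l probe went the other way. It was below background on the 3 wild type arrays, at -7.38, -7.90 and -6.78, and above background on knockouts 1 and 2, at -4.82 and -5.44, but not on knockout 3 (-7.45). That probe did not pass the filter and was not tested, so for Rpl39l as a gene no direction is given. Rpl39l and Rpl39 are close in sequence, and whether either probe also reads Rpl39 was not tested. The call was lost in 10 of the 20 alternatives in which this probe was tested, with limma adjusted p from 0.0201 to 0.216 over all of them. Among these losses were the fits without wild type 2 (adjusted p = 0.120), knockout 1 (0.0973) or knockout 2 (0.0727). A slide block (0.100) and a file number block (0.216) also lost it, as did leaving out wild types 1 and 2. With normexp the difference was -0.54 and did not pass (0.0721). Rpl39l is the only one of the 38 genes on chromosome 16, where Dppa2 also lies, with 367 protein-coding genes of the RefSeq table between them.

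**Figure D2:**
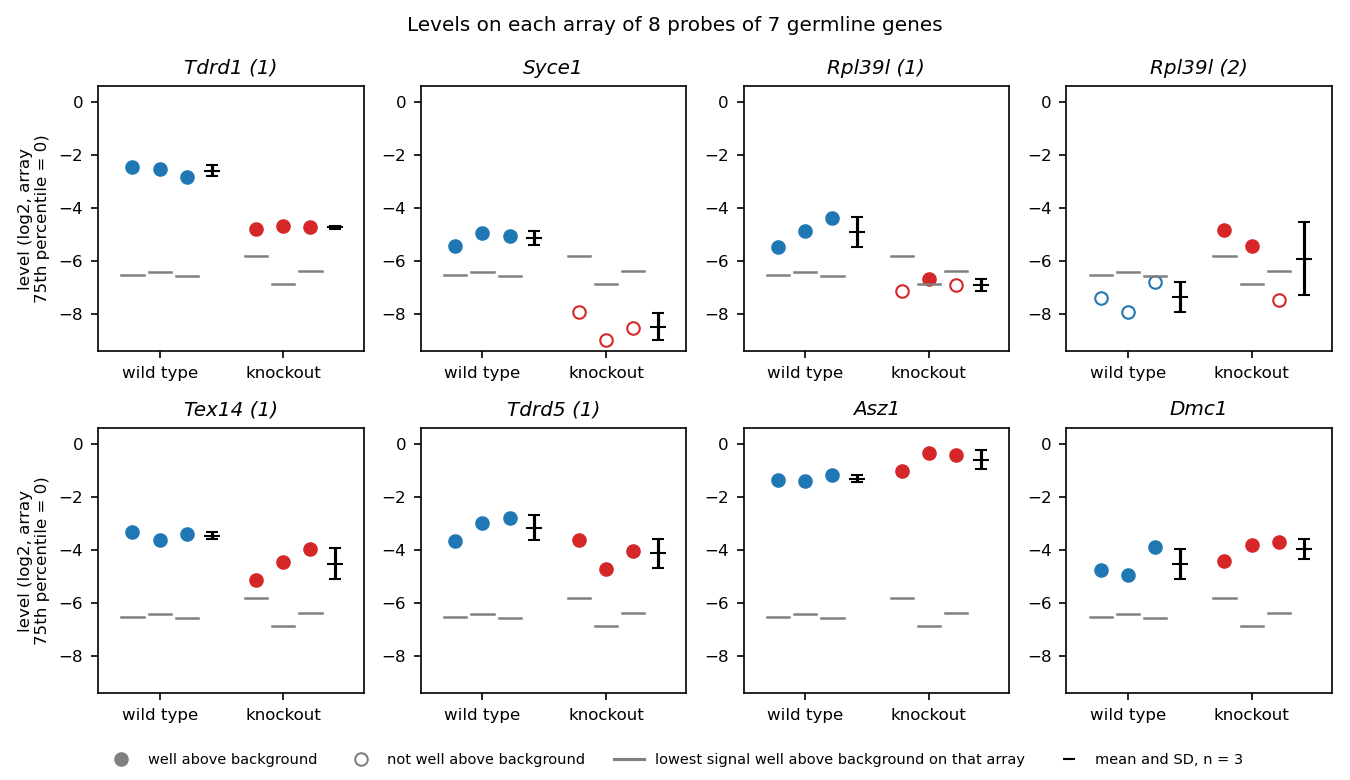
Levels of 8 probes on each array (log2, array 75th percentile at 0; blue for the 3 wild type and red for the 3 knockout lungs, open where not well above background), with the lowest signal called above background on that array as a grey line and the mean and SD at the right of each group. Tdrd1 separates the groups with all points above background, Syce1 drops below background in the knockout, and the 2 Rpl39l probes point in opposite directions.

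Tex14, a protein of the bridges that join dividing germ cells, did not pass. Its level was -3.33, -3.61 and -3.41 in the wild type and -5.11, -4.46 and -3.96 in the knockout lungs, above background throughout. The groups did not overlap, and knockout 3 lay nearest to the wild type. The difference was -1.06 (95% confidence interval -1.71 to -0.41, limma adjusted p = 0.0861). Without knockout 3 it was -1.34 and passed (adjusted p = 0.0447), and within slide 1 the difference was -0.49. Another Tex14 probe was above background on wild type 1 alone, at -5.78.

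Tdrd5, a Tudor protein of germ cell granules, likewise did not pass. Its level was -3.66, -3.00 and -2.80 in the wild type and -3.62, -4.70 and -4.03 in the knockout lungs, so wild type 1 and knockout 1 were alike. The difference was -0.97 (95% confidence interval -1.73 to -0.20, limma adjusted p = 0.129), and a second probe lay below background on all arrays. Tdrd7, a Tudor protein also known from the lens, was bright and even, at 2.87, 2.95 and 2.63 in the wild type and 2.71, 2.74 and 2.78 in the knockout lungs. Its interval of -0.35 to 0.21 leaves room for small changes in either direction.

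Asz1, a mitochondrial scaffold protein of the piRNA machinery, had the largest positive difference of the tested members. Its level was -1.35, -1.40 and -1.17 in the wild type and -1.01, -0.32 and -0.43 in the knockout lungs. All knockout values lay above all wild type values, with knockout 1 close to wild type 3. The difference was 0.72 (95% confidence interval 0.27 to 1.18), which did not pass (limma adjusted p = 0.0884). Within slide 1 it was 0.95, and between knockout 3 and wild type 3 it was 0.74.

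The other meiosis genes did not pass, and several of them were lowest on wild types 1 and 2. Dmc1, the meiotic recombinase, was at -4.76, -4.93 and -3.87 in the wild type and -4.40, -3.82 and -3.68 in the knockout lungs, a difference of 0.55 (-0.18 to 1.29). Syce2, the partner of Syce1 in the central element, was at -0.41, -0.33 and 0.24 in the wild type and 0.29, 0.21 and 0.00 in the knockout lungs, a difference of 0.33 (-0.12 to 0.79). In both genes wild type 3 lay with the knockouts. Brdt, a bromodomain protein that reads acetylated histones in spermatids, showed the same order. It was at -3.60, -3.48 and -2.89 in the wild type and -3.40, -2.57 and -2.81 in the knockout lungs (difference 0.40, -0.23 to 1.02). Its other probe was at -3.31, -3.58 and -2.87 in the wild type and -3.17, -2.88 and -2.96 in the knockout lungs (difference 0.25). Smc1b, the meiotic cohesin subunit, was above background on wild type 3 and on knockouts 1 and 2, at -5.24, -5.31 and -5.67, and not on wild types 1 and 2 (-7.08 and -7.11) or knockout 3 (-6.14).

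Wild types 1 and 2 stood apart by sex as read from the arrays. All 4 Y-linked genes checked were above background on these arrays and on no other, and the 4 Xist probes were above background on the other arrays only. The summed level of the 7 proliferation markers, on the log2 scale, was also lowest there, at 3.53 and 3.46, against 4.61 on wild type 3 and 4.55 to 4.91 on the knockouts, and its part in Dmc1, Syce2, Brdt and Smc1b was not tested. The mean of the 3 knockouts minus wild type 3, which leaves these arrays out, was -0.094 for Dmc1, -0.079 for Syce2 and -0.038 for Brdt. For Tdrd1, Syce1 and Rpl39l it was -1.90, -3.41 and -2.52 (the last 2 from knockout values mostly below background), and for Asz1 0.59. The differences given within slide 1 set knockout 3 against wild types 1 and 2 alone, so genotype and sex cannot be told apart in them. A term for these arrays gives the same differences as leaving them out, with wild type 3 as the only wild type. That lung was alone on slide 2, so genotype cannot be told apart there from that slide or that embryo. With a limma term for these arrays Tdrd1 passed (adjusted p = 0.0333), while Syce1 (0.0630) and Rpl39l (0.0602) did not, and 0.0906% of all features were called lower in that fit.

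**Figure D3:**
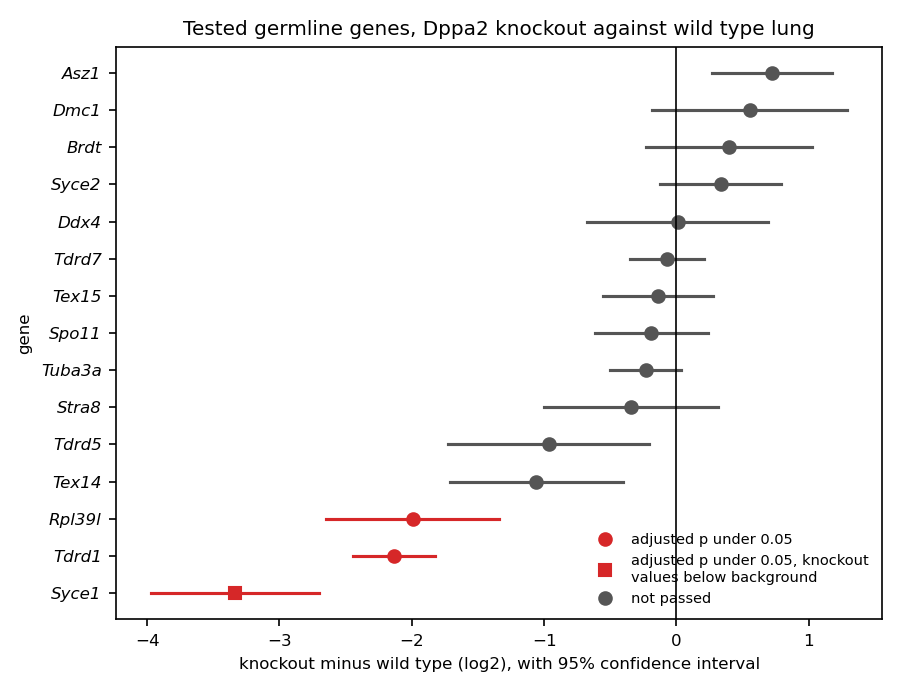
Difference between knockout and wild type (log2, x axis) with its 95% confidence interval for the 15 tested genes (y axis). Red marks the 3 genes whose tested probe passed, all lower, with Rpl39l read at 1 of its 2 opposed probes. A square marks Syce1, whose 3 knockout values lay below background, as did 2 of the 3 for Rpl39l, so neither size is settled. The intervals of the other 12 genes reach from -1.73 (Tdrd5) to 1.29 (Dmc1).

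**Figure D4:**
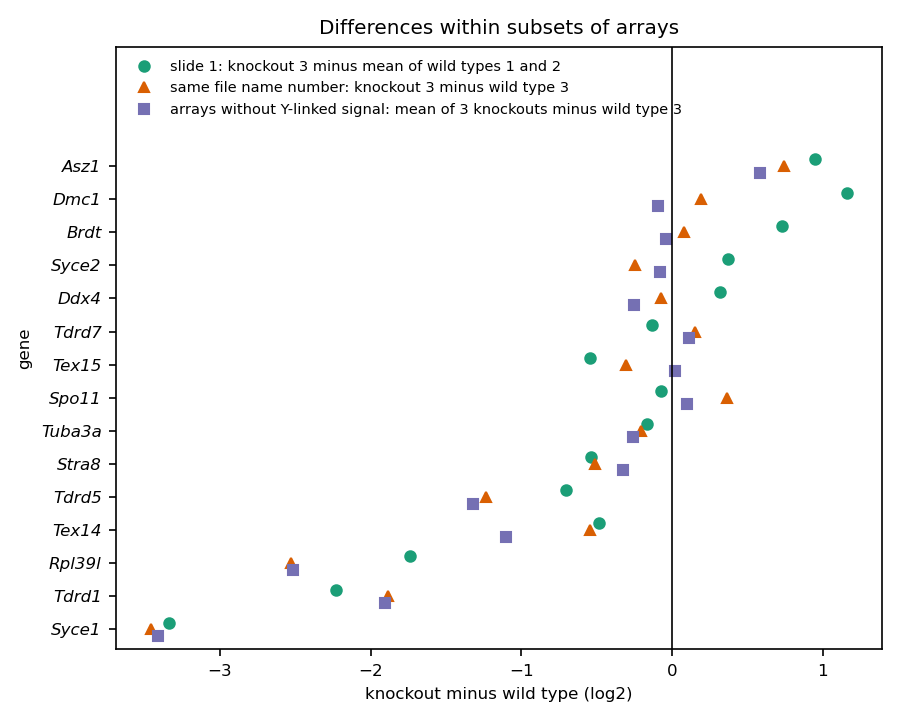
Differences (log2, x axis) for the same genes (y axis) within slide 1, between the pair of arrays that share a file name number, and over the arrays without Y-linked signal. Tdrd1 lies at or left of -1.88 by all 3 measures, which all use knockout 3 and so are not separate checks. On slide 1 knockout 3 is set against wild types 1 and 2, the arrays with Y-linked signal. Syce1 and the tested Rpl39l probe lie to the left with values that rest on knockout spots mostly below background (knockout 3 in both genes). Dmc1, Brdt and Syce2 lie right of 0 on slide 1 and just left of it without wild types 1 and 2.

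Ddx4, Stra8 and Spo11 were near the detection limit and did not pass, with intervals that leave room for changes in either direction. Ddx4, the germ cell RNA helicase, was at -4.77, -5.88 and -4.93 in the wild type and -5.39, -5.16 and -5.001 in the knockout lungs, a difference of 0.01 (95% confidence interval -0.67 to 0.69) whose sign turned with the scaling. Stra8, which starts meiosis in response to retinoic acid, was at -6.09, -4.94 and -5.54 in the wild type and -5.87, -5.68 and -6.05 in the knockout lungs (difference -0.34, -1.002 to 0.31). Spo11 was at -5.31, -5.46 and -5.83 in the wild type and -5.93, -5.78 and -5.46 in the knockout lungs (difference -0.19, -0.62 to 0.24). All 3 were above background on every array but knockout 1, the array with the highest threshold. A second Spo11 probe was below background on all arrays. Tex15, a partner of Piwi proteins in the nucleus, was well above background throughout, at -1.59, -1.40 and -1.74 in the wild type and -1.65, -1.46 and -2.04 in the knockout lungs (difference -0.14, -0.55 to 0.27). In all 4 genes the groups overlapped.

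Tuba3a, an alpha tubulin of the testis, was read by 2 probes. The brighter was at 3.88, 4.04 and 4.00 in the wild type and 3.82, 3.60 and 3.79 in the knockout lungs, groups that did not overlap but differed by only -0.23 (-0.50 to 0.03). The other was at -1.02, -0.67 and -0.98 in the wild type and -0.88, -1.02 and -1.12 in the knockout lungs (difference -0.12). Alpha tubulins are close in sequence, so these probes may read other tubulins too. Among the genes above background on some arrays only, Dpep3, a dipeptidase of germ cells, was above on wild type 1 (-6.27), Tdrd6 on wild type 2 (-5.60) and Hormad1, an axis protein of meiotic chromosomes, on knockout 3 at 1 of 2 probes (-5.93). Sycp2, a lateral element protein of the synaptonemal complex, was above on wild type 1 at 1 probe (-5.96) and on knockout 2 at another (-5.32), while a further probe of it was below background throughout. None of these 4 genes was above background on more than 1 array at any probe.

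By role, 0 of 5 tested regulators, 1 of 4 meiosis genes and 1 of 4 piRNA genes fell by limma, and 0 rose in any role. Over all features tested 0.619% were called lower and 0.725% higher. The median differences of regulators, meiosis genes and piRNA genes were -0.14, 0.07 and -0.52. Ddx4 and Stra8 among the regulators, and Syce1 and Spo11 among the meiosis genes, passed the filter through the wild type group alone. These counts and medians therefore support no direction for a role. Of 2 tested housekeeping isoforms, Tuba3a did not pass and Rpl39l passed at 1 of its 2 opposed probes. Wider lists gave no further calls. Of other piRNA genes, 4 of the 10 listed were tested and 0 passed, all 4 with positive differences (median 0.33), and Pld6, a mitochondrial protein that cuts piRNA precursors, had an adjusted p of 0.0882. Of other meiosis genes, 14 of 29 were tested and 0 passed (median 0.14), and of other germ cell genes 11 of 46, with 20 above background on no array and 0 passed (median -0.10). Repressors of germline genes (17 of 17 tested, among them E2f6, Mga, Max and Dnmt1) also had 0 calls, with a median of 0.05, as had the somatic counterparts of the members (15 of 17 tested, median 0.05).

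Of the 4 germ cell markers with a probe, 3 (Dazl, Dppa3 and Pou5f1) were above background on no array. Sycp3 and Kit were not analysed here. Ddx4 was above background on 5 arrays, at the dim levels given above (-5.88 to -4.77 in wild type, -5.39 to -5.001 in knockout lungs). Somatic markers of the gonad had 5 of 9 genes tested and 0 called, with summed levels of -0.33 to -0.15 in the wild type and -0.33 to 0.05 in the knockout lungs, and Foxl2 was below background throughout. Motile cilia markers, which share genes with sperm tails, had 9 of 10 tested and 0 called (4.23 to 4.36 and 3.84 to 4.33). Cardiac muscle markers did move with the groups: 6 of 8 fell, and their summed level was 5.80 to 6.08 in the wild type and 5.01 to 5.55 in the knockout lungs. Their part in the differences of Tdrd1, Syce1 and Rpl39l was not tested.

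As a check of the tissue, 7 of 7 lung epithelial markers passed the background filter, with summed levels of 8.18 to 8.61 in the wild type and 8.13 to 8.32 in the knockout lungs. The probe for Dppa2 was above background on all 6 arrays, at -3.57 to -3.25 in the wild type and -4.98 to -4.08 in the knockout lungs, with knockout 3 highest of the knockouts. Whether that probe lies in the deleted part is not known here, so it does not check the labels, and the Dppa4 probe was below background on every array. The arrays had 43379 spots each with 0 saturated, and 3 arrays a group limit the precision of each difference.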

How the data were processed

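Whole lung RNA of 3 wild type and 3 knockout embryos was labelled with Cy3 and hybridised to 1 Agilent whole genome array each. Per the file headers, Feature Extraction 10.7.3.1 made the deposited intensity of each spot, background-subtracted and detrended within the array with no scaling between arrays, and the design refers to mm9. The authors also deposited log2 values, made with GeneSpring GX11 per the design text; the scaling is not given in the sources used here, the direction matches the scanner files, each wild type median is 0 (knockouts 0.0108, -0.00698 and -0.000844), and the values lay close to quantile-normalized intensities relative to the wild type median (median absolute difference up to 0.000531). They served as an alternative.

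Outlier spots (77 to 110 an array) were left out, spots of a probe were averaged, and the array's 75th percentile of log2 intensity was subtracted. Accessions were named through a RefSeq table on GRCm38.p6 (26690 of 41174 probes matched), which is not mm9, so mm9 positions are not given and GRCm38.p6 coordinates belong to the printed sequences only. Promoter windows were matched by symbol for 33 of the 38 genes. A probe was kept where each array of 1 group or both had it above background, with the probe of highest mean for each gene. The comparison used lmFit and eBayes of limma 3.58.1 (R 4.3.3), two-sided and with no covariate, and was tested on simulated data. Fold bounds use the mean of the bright group against, per dim array, the higher of its own signal and the lowest signal called above background. Alternatives changed scaling, background correction (normexp, offset 50, on the median signal, since the files hold no mean signal), filter, probe choice, covariates and arrays used.

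Every listed gene is accounted for, with levels for genes that had a probe above background on at least 1 array; of the wider lists, genes past the threshold were to be named, and Pld6 was chosen after its value was seen. Members and lists were chosen with earlier results of these data known. The labels do not say whether the embryos shared a litter. Each p-value sets a difference against the spread between lungs within the groups, moderated over all features by eBayes. That spread also holds sex among the wild types and slide in both groups.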

Additional observations from a re-analysis of the deposited data

How the results depend on the processing

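Tdrd1 stayed lower in all 21 alternatives (-2.28 to -1.19) and passed limma in 19, with adjusted p from 0.00108 to 0.134. Syce1 stayed lower in all 20 in which it was tested and passed in 16 (0.000425 to 0.216). The tested Rpl39l probe stayed lower in all 20 and passed in 10. Both genes entered the reported fit through the wild type group alone, with knockout values mostly below background. The alternatives also reuse the same arrays, so these counts of settings are no separate support for a loss. The germline genes with a tested probe called lower in the knockout were 3 as reported, Rpl39l being counted at 1 of its 2 opposed probes. This count was 1 with probes above background on all 6 arrays (262 of all features called, in either direction), a filter that removes Syce1 and Rpl39l. It was also 1 with a slide block (24 called), again Tdrd1. It was 1, and again Tdrd1, with a term for the arrays with Y-linked signal (26 called), which sets the knockouts against wild type 3 alone. It was 0 with a block for the number in the file names (3 at an unadjusted p under 0.05 by limma, and 5 of all features called) and 0 without the arrays with Y-linked signal (4 at an unadjusted p under 0.05, 0 of all features called), where fewer degrees of freedom remain. Leaving out 1 array gave 2 to 4, while the features called in either direction ran from 36 (without wild type 1) to 1926 (without wild type 3). The fit that gave 4, without knockout 3, called 444 of all features. The count of genes higher was 0 by limma under every setting, with 0 to 3 at an unadjusted p under 0.05. Without 1 array, 15 to 16 genes were detected, and with the looser flag for a significantly positive signal 23 were.

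Replicate numbers did not pair the arrays: same-numbered arrays had correlations of -0.02, 0.04 and 0.03 in their deviations from the group means. With a replicate block the same 3 genes passed, and 55 of all features did, against 267 without it.

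Genes that did not pass changed sign as follows; the cause was not tested. With the term for arrays with Y-linked signal, and equally without those arrays, Brdt was at -0.038, Ddx4 -0.25, Dmc1 -0.094, Spo11 0.10, Syce2 -0.079, Tdrd7 0.11 and Tex15 0.022. With the block for the number in the file names Ddx4 was at -0.070, Spo11 0.37, Syce2 -0.24 and Tdrd7 0.15. Ddx4 was at -0.15 with quantile normalization, -0.14 with median scaling, -0.083 with normexp and -0.14 with the authors' deposited values, and Tdrd7 at 0.0030 with quantile normalization, 0.043 with normexp and 0.0025 with the authors' values. Leaving out 1 array took Ddx4 to between -0.33 and 0.22 and Tex15 to between -0.27 and 0.022. Median scaling moved the median of all features from 0.01 to -0.14. Dim signal limits the rest: 13 genes had no probe above background in either group.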
